A study of Mus musculus with 20 samples.

Results

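The genes described here are the ubiquitin conjugating enzymes (E2 enzymes, mouse gene names beginning with Ube2) and the F-box genes (names beginning with Fbxl, Fbxo or Fbxw), measured in whole blood of mice inoculated with hepatoma cells. They were found by gene name among the 41174 probes of a whole mouse genome array that are not controls. Ube2c and Ube2l6 were left out, and a probe was kept if 4 or more of the 20 arrays showed the mouse sample well above background. That gave 69 probes of 28 Ube2 genes, out of 79 probes of 29 genes with such a name, and 85 probes of 55 F-box genes, out of 124 probes of 68 genes. Together they are 154 probes, all of which entered the fits across 20915 probes. Of these, 54 Ube2 probes and 55 F-box probes were well above background on all 20 arrays. On at least 1 of the days, 6 Ube2 and 17 F-box probes were well above background on no array. The dimmest member, a probe of Fbxw9, was well above background on 4 arrays and read between -0.010 and 0.32, and the brightest candidates outside, 1 probe each of Fbxl10 and Fbxo45, were so on 3 arrays and spanned -0.23 to 0.048 and -0.27 to 0.16.

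The 4 female C57Bl/6 mice, numbered 305, 310, 315 and 320, were bled before the inoculation (day 0) and again on days 10, 15, 20 and 25 after cells of Hepa1-6, a mouse hepatoma line, were injected under the skin. The samples hold no uninoculated mice bled on the same days, so tumour, time and repeated bleeding cannot be told apart. All mice are of 1 inbred strain and 1 sex, and each group of 4 arrays holds the same 4 animals. The mouse RNA carried the red dye (Cy5), and the green dye (Cy3) marked the same reference RNA on every array, from blood of untreated C57Bl/6 mice. Every value below is log2(Cy5/Cy3) after loess unless another scaling is named, and a difference of 1 is 1 doubling of the ratio. Loess sets each array's ratio to 0 over probes of like brightness. A value of 0 is thus the middle of such probes on that array, and not the level of the reference RNA. A change is a difference of such values between days, with its standard error (SE), and an adjusted p is limma's, by Benjamini-Hochberg over all 20915 probes, called at 0.05.

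Ubiquitin is a small protein that cells attach to other proteins, often to mark them for destruction by the proteasome. An E1 enzyme activates it, an E2 enzyme carries it, and an E3 ligase brings the E2 to the substrate. A few E2 enzymes carry related modifiers instead, among them NEDD8, which switches on the cullin ligases. F-box proteins are the interchangeable substrate receptors of the best known cullin ligase, SCF, where Skp1 and a cullin hold the F-box protein next to the E2. Fbxw proteins read substrates with WD40 repeats, Fbxl proteins with leucine-rich repeats, and Fbxo proteins with other or no known domains. In red cell maturation the ubiquitin system is known for clearing organelles, ribosomes and enzymes from the reticulocyte, the last immature form, which still holds RNA and circulates in blood. Ube2o and Fbxo7 have each been tied to that step in mice.

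The arrays set limits that touch every result. The 4 arrays of a day shared 1 slide, so slide and day cannot be told apart. The median green signal over local background was 79.6 to 110 on the day 0 arrays, 7.82 to 14.4 on days 10 to 20 and 24.1 to 26.4 on day 25, which places the day 0 arrays apart. The day 0 array of mouse 320 correlated more with the day 10 arrays (mean r 0.61 across probes) than with the other day 0 arrays (0.39), and that of mouse 305 more with the day 25 arrays (0.59) than with the other day 0 arrays (0.46). The 10 spike-in probes, which carry added RNA and no blood RNA, averaged -0.65, -0.094, -0.31, -0.49 and -1.16 on days 0, 10, 15, 20 and 25. Because the loess step sets each array's ratio to 0 over probes of like brightness, values here are relative to other probes of that brightness. In whole blood, fewer cells of a type and less RNA per cell cannot be told apart.

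The comparison with the most calls was that of day 25 with day 10, and there, after loess but not after 3 other scalings named here, most called E2 probes were lower. Of 69 Ube2 probes, 30 were lower and 8 higher on day 25, a share of 55.1%, against 31.5% called among all probes tested. The calls lay in 14 genes with a lower probe and 6 with a higher one, 1 of them with both. The direction depended on how the arrays were scaled: with each array centred on the median of all its probes in place of loess, 29 Ube2 probes were higher and 0 lower, centred on the tested probes 18 were higher and 4 lower, and centred on the spike-in probes 14 were higher and 0 lower. Of all 20915 probes tested, 10458, 10676 and 4789 were called under those scalings, in that order, and 10272, 5811 and 4770 of these were higher. The scalings placed the median change of all tested probes at 0.39, -0.025 and 0.28, against 0.032 with loess. Among all probes tested, 17.7% were higher and 13.8% lower on day 25. On the same arrays all 16 erythroid markers tested, of 18 listed, were lower on day 25 than on day 10 (changes -1.90 to -0.21). Below 0 stood 13, 16 and 14 of them under the other 3 scalings, in the order above, with 1, 8 and 2 past the threshold. Their part in the E2 values was not tested. The plot of 12 Ube2 probes by day shows the members that the account turns on.

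**Figure D1:**
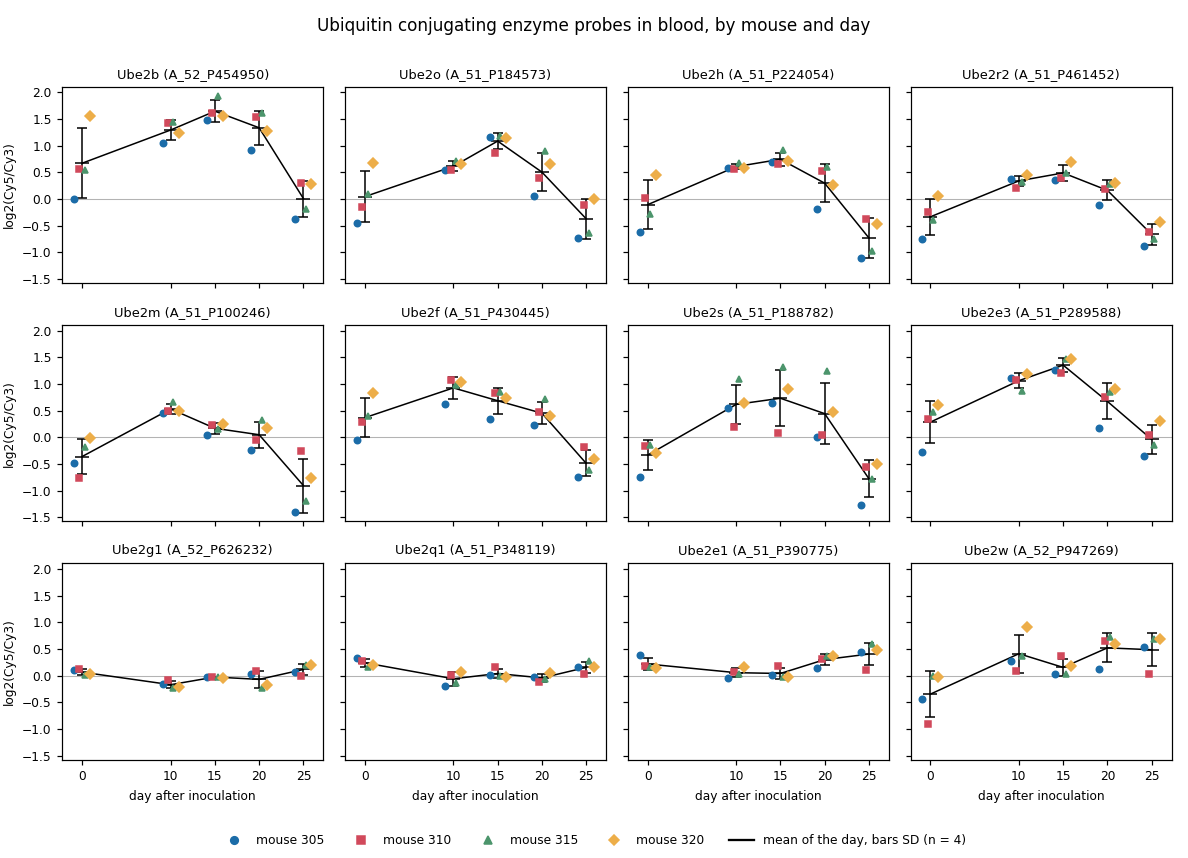
Log2(Cy5/Cy3) of 12 Ube2 probes on days 0, 10, 15, 20 and 25, 1 panel for each gene. Points are the 4 mice and the line joins the day means with SD bars (n = 4). Ube2b, Ube2o, Ube2h, Ube2r2, Ube2m, Ube2f, Ube2s and Ube2e3 stand lowest on day 25, and Ube2g1, Ube2q1 and Ube2e1 do not, under the loess scaling on which these directions depend.

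Ube2o and Ube2h are E2 enzymes of the red cell lineage: Ube2o, which picks its own substrates, strips ribosomal proteins from reticulocytes in mice, and Ube2h serves the CTLH ligase. In mice 305, 310, 315 and 320, Ube2h (probe A_51_P224054) read -0.62, 0.012, -0.28 and 0.46 on day 0 and 0.59, 0.57, 0.68 and 0.59 on day 10. Its later values were 0.70, 0.66, 0.92 and 0.70 on day 15, -0.19, 0.52, 0.61 and 0.25 on day 20 and -1.11, -0.37, -0.98 and -0.46 on day 25. All values of day 25 were below all values of day 10, and those of day 0 spread over the gap, with mouse 305 lowest and mouse 320 highest. The change on day 25 against day 10 was -1.34 (SE 0.20, adjusted p = 0.000206), and the other Ube2h probes gave -0.93 and -0.54, also called. Ube2o (probe A_51_P184573) stood at -0.45, -0.15, 0.10 and 0.68 on day 0 and at 0.54, 0.54, 0.72 and 0.66 on day 10, in the same mouse order. On day 15 it read 1.16, 0.86, 1.19 and 1.14, on day 20 0.059, 0.40, 0.90 and 0.66 and on day 25 -0.74, -0.10, -0.64 and 0.0047. The Ube2o level was highest on day 15, when every mouse exceeded its own value of day 10. Day 25 against day 10 gave -0.98 (SE 0.21, adjusted p = 0.00225) for this probe and -1.27 (SE 0.24, adjusted p = 0.00103) for the other, which was measured in 3 of the 4 mice on day 0. All 5 probes of these genes were lower on day 25 than on day 10 in every mouse.

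Ube2a and Ube2b are the mammalian forms of yeast Rad6, which acts on histone H2B and in the bypass of damaged DNA. Probe A_52_P454950 of Ube2b gave -0.00086, 0.57, 0.55 and 1.57 on day 0 and 1.05, 1.43, 1.45 and 1.24 on day 10. Then came 1.47, 1.61, 1.94 and 1.56 on day 15, 0.91, 1.54, 1.61 and 1.28 on day 20 and -0.37, 0.31, -0.18 and 0.28 on day 25. Day 0 spread widely, with mouse 320 at the level of days 10 to 20, and no mouse of day 25 reached the lowest one of day 10. The change was -1.29 (SE 0.24, adjusted p = 0.000972), a ratio of 0.41. Of the others, 3 Ube2b probes fell by 0.96, 1.0 and 1.04, and probe A_52_P564625, at -0.10, -0.015, 0.046 and -0.11 on day 25, against -0.14, -0.031, -0.16 and -0.30 on day 10, did not pass the test (0.12, SE 0.065, adjusted p = 0.175). Ube2a, picked as its partner after the values were seen, went the other way: its probe A_52_P139093 read 0.29, 0.049, 0.35 and 0.31 on day 25, against -0.047, 0.015, -0.036 and -0.016 on day 10, with a change of 0.27 (SE 0.058, adjusted p = 0.00211), and its other probe gave 0.10. Both Rad6 genes thus passed the test under the loess scaling, in opposite directions.

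The genes of the next lines were picked with their calls known, and a shared cause of their changes was not tested. Shown are promoters of members with probes called lower on day 25 than on day 10, and of Fbxw11, called higher, under the loess scaling on which these directions depend. Each is the 250 bases before a RefSeq transcript start in build GRCm38.p6, 5′ to 3′ on the gene's strand, which is plus for Ube2r2, Fbxo7 and Fbxw11 and minus for Ube2h and Ube2b. Capitals mark matches, on either strand, to AGATAA (the core read by Gata1, the main red cell transcription factor) or to CCNCNCCC (a form read by Klf1, another red cell factor). The letters of these motifs cannot overlap each other, but neighbouring matches of CCNCNCCC can merge.

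Ube2h, inner start, chr6:30243804-30244053: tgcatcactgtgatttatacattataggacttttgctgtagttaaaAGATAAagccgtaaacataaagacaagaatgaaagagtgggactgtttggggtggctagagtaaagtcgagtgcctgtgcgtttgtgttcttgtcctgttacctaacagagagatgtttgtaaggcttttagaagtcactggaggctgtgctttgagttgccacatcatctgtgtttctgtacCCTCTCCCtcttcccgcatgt

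Ube2h, outer start, chr6:30304540-30304789: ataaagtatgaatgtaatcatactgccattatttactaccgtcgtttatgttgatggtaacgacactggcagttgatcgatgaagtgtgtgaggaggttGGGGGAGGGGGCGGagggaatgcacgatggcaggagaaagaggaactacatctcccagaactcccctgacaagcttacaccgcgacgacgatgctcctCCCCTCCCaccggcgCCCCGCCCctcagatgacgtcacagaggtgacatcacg

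Ube2b, inner start, chr11:52000492-52000741: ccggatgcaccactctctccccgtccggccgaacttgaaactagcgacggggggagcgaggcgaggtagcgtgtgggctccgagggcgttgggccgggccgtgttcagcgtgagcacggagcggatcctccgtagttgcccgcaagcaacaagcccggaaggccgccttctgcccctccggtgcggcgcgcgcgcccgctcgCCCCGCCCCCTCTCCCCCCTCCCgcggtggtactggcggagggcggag

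Ube2b, outer start, chr11:52000787-52001036: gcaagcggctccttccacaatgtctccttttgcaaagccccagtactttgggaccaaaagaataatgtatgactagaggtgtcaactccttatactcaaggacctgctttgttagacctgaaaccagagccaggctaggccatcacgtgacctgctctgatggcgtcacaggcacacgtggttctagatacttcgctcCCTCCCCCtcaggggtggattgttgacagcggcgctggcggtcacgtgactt

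Ube2r2, chr4:41135771-41136020: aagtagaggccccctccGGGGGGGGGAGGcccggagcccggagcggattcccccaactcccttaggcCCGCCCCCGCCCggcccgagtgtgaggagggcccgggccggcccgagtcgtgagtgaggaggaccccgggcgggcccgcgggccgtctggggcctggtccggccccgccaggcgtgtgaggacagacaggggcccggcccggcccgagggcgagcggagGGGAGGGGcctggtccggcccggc

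Fbxo7, chr10:86021679-86021928: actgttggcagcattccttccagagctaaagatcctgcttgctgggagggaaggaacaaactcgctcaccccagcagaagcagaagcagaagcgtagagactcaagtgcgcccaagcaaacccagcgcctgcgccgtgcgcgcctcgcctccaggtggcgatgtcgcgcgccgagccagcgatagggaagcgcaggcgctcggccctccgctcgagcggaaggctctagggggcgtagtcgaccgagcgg

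Fbxw11, chr11:32642305-32642554: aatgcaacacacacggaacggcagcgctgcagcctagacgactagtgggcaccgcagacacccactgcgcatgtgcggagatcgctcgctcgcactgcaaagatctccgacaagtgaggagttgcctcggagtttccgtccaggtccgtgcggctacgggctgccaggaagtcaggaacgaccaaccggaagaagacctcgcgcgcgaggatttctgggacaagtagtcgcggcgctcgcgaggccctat

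AGATAA stood in 1 of the 32 Ube2 promoters (3.125%), that of the inner start of Ube2h, in 3 of 62 F-box promoters (4.839%) and in 9.988% of all 32851 promoters in the table. CCNCNCCC stood in 27 of 32 Ube2 promoters (84.38%), 37 of 62 F-box promoters (59.68%) and 45.93% of all. The median share of G and C differed too, at 70.8% in Ube2 promoters, 62% in F-box promoters and 52.4% in all, and its part in these shares was not tested. A further start of Fbxo7, whose window overlaps the one shown, held neither motif. These are matches of letters and say nothing of binding. The table held promoters for 21 of the Ube2 genes and 44 of the F-box genes, and Ube2o was not among them.

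The enzymes that load NEDD8 are Ube2m, which serves most cullins, and Ube2f, which serves Cul5. In mice 305, 310, 315 and 320, Ube2m (probe A_51_P100246) read -0.48, -0.76, -0.18 and -0.017 on day 0 and 0.46, 0.50, 0.67 and 0.50 on day 10. The values of day 15 were 0.035, 0.23, 0.16 and 0.26, those of day 20 -0.24, -0.052, 0.32 and 0.17 and those of day 25 -1.40, -0.26, -1.19 and -0.76. Ube2m stood above 0 in all mice on day 10 and below 0 in all mice on day 0 and day 25. Its change on day 25 against day 10 was -1.44 (SE 0.19, adjusted p = 9.53e-05), and the second probe gave -1.41 (SE 0.16, adjusted p = 4.81e-05). Ube2f (probe A_51_P430445) stood at -0.046, 0.29, 0.41 and 0.83 on day 0 and at 0.63, 1.07, 0.98 and 1.04 on day 10, in the same mouse order. Later it gave 0.34, 0.83, 0.85 and 0.73 on day 15, 0.23, 0.48, 0.71 and 0.40 on day 20 and -0.74, -0.19, -0.61 and -0.41 on day 25. Ube2f was above 0 in all mice on days 10, 15 and 20 and below 0 in all on day 25. The change was -1.41 (SE 0.17, adjusted p = 4.81e-05). Of the 5 probes of these enzymes, 4 were lower on day 25 (changes -1.44 to -0.97), and Ube2f probe A_52_P362611 did not pass the test at -0.019.

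Ube2r2, a relative of yeast Cdc34, builds ubiquitin chains with SCF, and Ube2s extends lysine 11 chains with the anaphase-promoting complex (APC/C). All 6 of their probes were lower on day 25 than on day 10 in every mouse, with changes of -1.56 to -0.94. Probe A_51_P461452 of Ube2r2 gave -0.76, -0.24, -0.39 and 0.055 on day 0 and 0.38, 0.22, 0.32 and 0.45 on day 10. Its later values were 0.36, 0.40, 0.49 and 0.70 on day 15, -0.11, 0.18, 0.28 and 0.30 on day 20 and -0.87, -0.62, -0.74 and -0.42 on day 25. No value of day 25 reached the lowest value of day 10. The change was -1.0 (SE 0.14, adjusted p = 0.000106). Ube2s (probe A_51_P188782) stood at -0.74, -0.16, -0.13 and -0.30 on day 0 and at 0.55, 0.19, 1.09 and 0.65 on day 10, in the same mouse order. On day 15 it read 0.64, 0.076, 1.32 and 0.90, on day 20 0.0072, 0.041, 1.25 and 0.48 and on day 25 -1.26, -0.55, -0.79 and -0.50. Ube2s differed most between mice on days 15 and 20, with mouse 315 the highest on both. The change on day 25 against day 10 was -1.39 (SE 0.28, adjusted p = 0.00141). Of 6 dividing-cell markers tested, 4 were lower on day 25 after loess, among them Mki67 at -1.41 and Ccnb2 at -0.97, with 13.8% of all probes lower. With arrays centred on all, tested and spike-in probes, 0, 2 and 0 of these markers passed. Their part in the result was not tested.

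Ube2d and Ube2e enzymes work with many RING ligases. Of their 12 probes, 4 were lower and 1 higher on day 25 than on day 10. In mice 305, 310, 315 and 320, Ube2e3 (probe A_51_P289588) read -0.28, 0.34, 0.47 and 0.61 on day 0 and 1.11, 1.08, 0.88 and 1.20 on day 10. Then came 1.27, 1.22, 1.46 and 1.47 on day 15, 0.18, 0.76, 0.85 and 0.91 on day 20 and -0.34, 0.038, -0.15 and 0.30 on day 25. Ube2e3 peaked on day 15, where all mice read 1.22 or more, and its lowest value of day 10 was above its highest of day 25. The change was -1.10 (SE 0.18, adjusted p = 0.000334). Its relative Ube2e1 differed in direction under the loess scaling, at 0.44, 0.10, 0.59 and 0.49 on day 25, against -0.045, 0.074, 0.030 and 0.17 on day 10, with a change of 0.35 (SE 0.089, adjusted p = 0.00686). Mouse 310 stood lowest there on day 25. The Ube2d3 probes gave -0.71 to 0.028, of which A_52_P234138 read -0.68, -0.082, -0.26 and 0.016 on day 25, against 0.51, 0.45, 0.50 and 0.39 on day 10, with -0.71 (SE 0.13, adjusted p = 0.000768).

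Ube2n joins with Ube2v1 or Ube2v2 to build lysine 63 chains, used in signalling and DNA repair. All 3 Ube2v1 probes were lower on day 25, 1 of them (A_52_P575752, -0.25) not without the day 10 array of mouse 320. The largest change, of probe A_52_P484081, was -0.80 (SE 0.15, adjusted p = 0.000741), with values of -0.49, -0.064, -0.60 and -0.11 on day 25, against 0.36, 0.46, 0.36 and 0.76 on day 10. Ube2n probe A_52_P146164 changed by -0.19 (SE 0.063, adjusted p = 0.0293), a call lost without any 1 of the day 25 arrays of mice 305 and 320 or any 1 of the day 10 arrays of mice 315 and 320, and its other probe by -0.056, which did not pass. Ube2z, an E2 loaded by the E1 Uba6, read -0.49, -0.016, -0.36 and 0.22 on day 25, against 0.75, 0.65, 0.75 and 0.81 on day 10, with -0.90 (SE 0.15, adjusted p = 0.000431). Ube2t, known for repair of DNA crosslinks, read 0.14, 0.0066, 0.0064 and 0.10 on day 25, against -0.011, 0.0027, -0.22 and -0.27 on day 10 and did not pass the test (0.19, SE 0.072, adjusted p = 0.0548). Ube2l3, a partner of HECT and RING-between-RING ligases, gave -0.054 and 0.049, neither past the threshold. Ube2k had no member probe.

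Some E2 genes went the other way after loess. Ube2g1, which extends lysine 48 chains, rose in both its probes, by 0.23 and 0.29, and probe A_52_P626232 read 0.073, -0.00019, 0.19 and 0.20 on day 25, against -0.16, -0.083, -0.22 and -0.21 on day 10 with 0.29 (SE 0.064, adjusted p = 0.00298). Ube2q1 (probe A_51_P348119) read 0.16, 0.027, 0.27 and 0.17 on day 25, against -0.20, 0.022, -0.13 and 0.077 on day 10, groups that overlapped, with 0.21 (SE 0.066, adjusted p = 0.021). That call was lost without the day 25 array of mouse 315 or any 1 of the day 10 arrays of mice 305 and 315. The other Ube2q1 probe, A_51_P480363, did not pass.

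The plot of changes by scaling sets the lower and the higher named probes of both families side by side. Of the 10 higher ones, 9 stayed above 0 in the Cy5 channel alone, where Ube2q1 gave -0.059, and 9 when arrays were centred on the tested probes, where Fbxo11 probe A_51_P479802 gave -0.091.

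**Figure D2:**
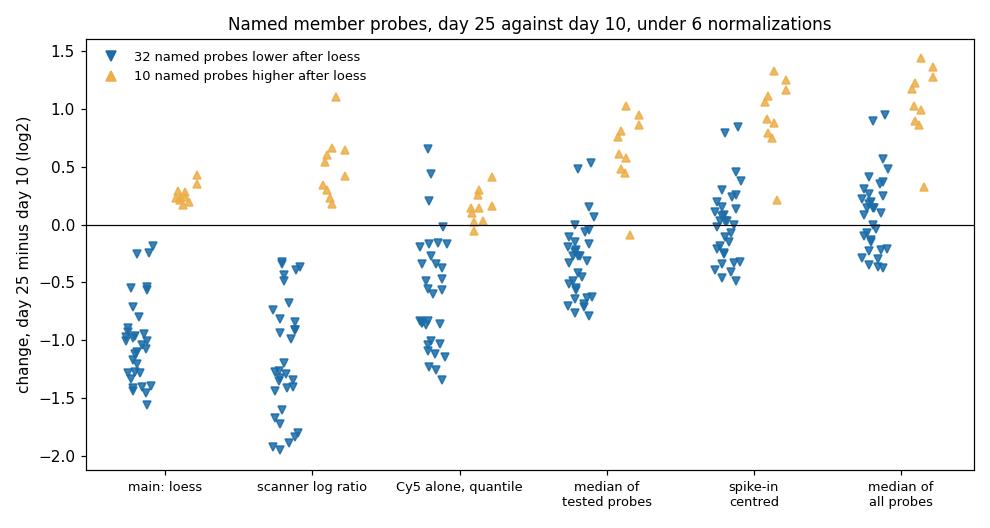
Change in log2(Cy5/Cy3) on day 25 against day 10 of 32 named member probes that were lower and 10 that were higher under the main processing, under 6 ways of scaling the arrays. Each point is 1 probe. The lower ones spread across 0 when arrays are centred on all probes (13 below, 19 above) or on spike-in probes (16 below, 16 above), and stay mostly below 0 when centred on the tested probes (28 of 32).

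The F-box genes were split. Of 85 probes, 13 were lower and 10 higher on day 25 than on day 10, a share of 27.1%, which is near the 31.5% of all probes tested, so the count by itself sets the family apart in no way. The calls lay in 9 genes each way. Centred on the median of all probes, 44 were higher and 0 lower, centred on the tested probes 21 higher and 18 lower, and centred on the spike-in probes 9 higher and 0 lower. Of all 20915 probes tested, 10458, 10676 and 4789 were called there, in that order, and 10272, 5811 and 4770 of these were higher. The count of 23 calls became 15 without the day 10 array of mouse 320 and 14 without the day 25 array of mouse 315. By class, 4 of 26 Fbxl probes were higher and 1 lower, 2 of 15 Fbxw probes higher and 4 lower, and 4 of 44 Fbxo probes higher and 8 lower. The plot of 8 F-box probes by day shows genes of both kinds.

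**Figure D3:**
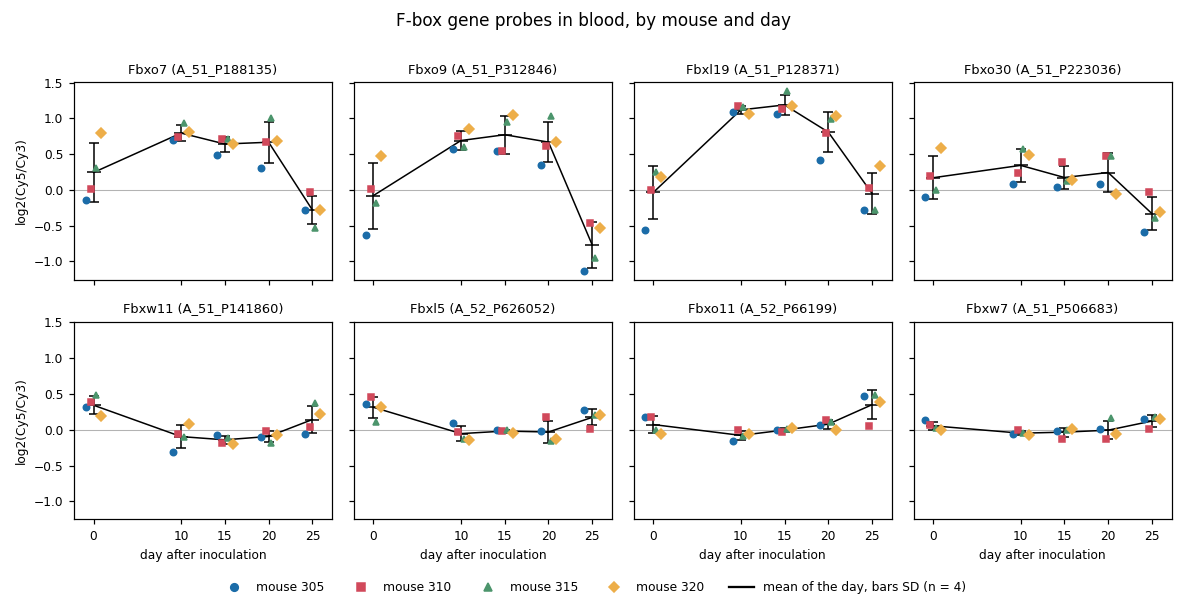
Log2(Cy5/Cy3) of 8 F-box probes on days 0, 10, 15, 20 and 25, 1 panel for each gene. Points are the 4 mice and the line joins the day means with SD bars (n = 4). Fbxo7, Fbxo9, Fbxl19 and Fbxo30 stand lower on day 25 than on day 10, and Fbxw11, Fbxl5, Fbxo11 and Fbxw7 higher, under the loess scaling on which these directions depend.

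Fbxo7 binds the proteasome regulator Pi31 and is needed for normal red cell maturation in mice. In mice 305, 310, 315 and 320, Fbxo7 (probe A_51_P188135) read -0.14, 0.013, 0.30 and 0.80 on day 0 and 0.69, 0.74, 0.94 and 0.81 on day 10. The values of day 15 were 0.50, 0.72, 0.72 and 0.64, those of day 20 0.31, 0.67, 1.0 and 0.69 and those of day 25 -0.28, -0.035, -0.53 and -0.28. It was above 0 in all mice on days 10, 15 and 20 and below 0 in all mice on day 25. The change on day 25 against day 10 was -1.08 (SE 0.16, adjusted p = 0.00021). Fbxo9, an SCF receptor for regulators of mTOR signalling, had the largest fall of the family under loess. Fbxo9 (probe A_51_P312846) stood at -0.63, 0.014, -0.18 and 0.48 on day 0 and at 0.57, 0.75, 0.59 and 0.85 on day 10, in the same mouse order. Later it gave 0.54, 0.55, 0.94 and 1.05 on day 15, 0.35, 0.61, 1.04 and 0.67 on day 20 and -1.13, -0.46, -0.96 and -0.53 on day 25. Its values of day 25 were all negative, and every value of days 10, 15 and 20 was positive. The change was -1.46 (SE 0.20, adjusted p = 0.000115), a ratio of 0.363.

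Fbxl19 carries a CXXC zinc finger that binds unmethylated CpG DNA. Probe A_51_P128371 of Fbxl19 gave -0.56, -0.0055, 0.25 and 0.18 on day 0 and 1.09, 1.18, 1.16 and 1.06 on day 10. Its later values were 1.07, 1.13, 1.39 and 1.17 on day 15, 0.42, 0.80, 0.99 and 1.03 on day 20 and -0.28, 0.034, -0.28 and 0.33 on day 25. The days 10 and 15 lay above 1 in all mice, and day 25 overlapped day 0. The change on day 25 against day 10 was -1.17 (SE 0.17, adjusted p = 0.000133). Its other probe gave -0.071, so the gene's probes disagreed. Fbxo2, which recognises sugar chains on misfolded glycoproteins and is best known from brain, did likewise: probe A_52_P580912 read -1.07, -0.64, -0.93 and -0.34 on day 25, against 0.47, 0.16, 0.71 and 0.49 on day 10, with -1.20 (SE 0.21, adjusted p = 0.000543), while the other 2 probes gave -0.11 and -0.092 and did not pass. Fbxo30, an F-box gene induced in wasting mouse muscle and picked here after its values were seen, was lower with all 3 probes, at -0.74 to -0.39. Its probe A_52_P604568 read -0.31, -0.037, -0.30 and -0.13 on day 25, against 0.30, 0.38, 0.63 and 0.88 on day 10, with -0.74 (SE 0.15, adjusted p = 0.00159).

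Among the F-box genes that were higher under loess on day 25 stood Fbxo11, a receptor for Bcl6 in B cells. Fbxo11 (probe A_52_P66199) stood at 0.18, 0.18, -0.0017 and -0.057 on day 0 and at -0.16, -0.0045, -0.090 and -0.056 on day 10, in the same mouse order. On day 15 it read -0.0020, -0.035, 0.0042 and 0.020, on day 20 0.069, 0.14, 0.11 and -0.0035 and on day 25 0.48, 0.052, 0.48 and 0.39. Day 25 lay above day 10 in every mouse, least so in mouse 310. The change was 0.43 (SE 0.078, adjusted p = 0.000726). Fbxl20 (probe A_51_P149373) read 0.39, 0.0075, 0.36 and 0.14 on day 25, against -0.034, -0.023, -0.23 and 0.025 on day 10, overlapping groups, with 0.29 (SE 0.077, adjusted p = 0.00935). The other Fbxl20 probe, A_51_P500996, did not pass. Fbxw7, the receptor for cyclin E, Myc and Notch, read 0.15, 0.0047, 0.17 and 0.16 on day 25, against -0.057, -0.0094, -0.048 and -0.077 on day 10, with 0.17 (SE 0.056, adjusted p = 0.0289) for this probe, lost without any 1 of the day 25 arrays of mice 305, 315 and 320 or any 1 of the day 10 arrays of mice 305, 315 and 320, and -0.072 for the other. Fbxo5, an inhibitor of the APC/C, and Fbxo32, the muscle gene atrogin-1, gave 0.16 and 0.056 and did not pass.

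Fbxw11 is a close relative of beta-TrCP that marks the NF-kB inhibitor and beta-catenin for destruction. Fbxl5 senses iron and removes the iron regulator Ireb2. Under loess, a probe of each was called lower than on day 0 on days 10, 15 and 20, and not on day 25. In mice 305, 310, 315 and 320, Fbxw11 (probe A_51_P141860) read 0.32, 0.39, 0.48 and 0.19 on day 0 and -0.31, -0.061, -0.094 and 0.082 on day 10. Then came -0.073, -0.18, -0.12 and -0.19 on day 15, -0.10, -0.014, -0.19 and -0.067 on day 20 and -0.064, 0.045, 0.37 and 0.22 on day 25. Fbxw11 was above every later value of days 10, 15 and 20 in all mice on day 0. Its changes against day 0 were -0.44 (SE 0.089, adjusted p = 0.00565) on day 10, -0.48 (SE 0.089, adjusted p = 0.00343) on day 15, -0.44 (SE 0.089, adjusted p = 0.0151) on day 20 and -0.20 (SE 0.089, adjusted p = 0.25) on day 25. The rise on day 25 against day 10, 0.24 (SE 0.089, adjusted p = 0.0492), rested on groups that overlap and was lost without any 1 of the day 25 arrays of mice 315 and 320 or any 1 of the day 10 arrays of mice 305, 310 and 315. Probe A_52_P626052 of Fbxl5 gave 0.37, 0.47, 0.12 and 0.31 on day 0 and 0.089, -0.036, -0.13 and -0.14 on day 10. The values of day 15 were -0.0039, -0.022, -0.00061 and -0.045, those of day 20 -0.010, 0.17, -0.16 and -0.13 and those of day 25 0.28, 0.012, 0.20 and 0.20. Fbxl5 likewise had its highest mean on day 0, and its changes were -0.37 (SE 0.080, adjusted p = 0.00809) on day 10, -0.33 (SE 0.080, adjusted p = 0.0179) on day 15 and -0.35 (SE 0.080, adjusted p = 0.0285) on day 20. Against day 0, its day 25 did not pass. Day 25 against day 10 gave 0.23 (SE 0.080, adjusted p = 0.0391), lost without any 1 of the day 25 arrays of mice 305, 315 and 320 or any 1 of the day 10 arrays of mice 310, 315 and 320. A second Fbxl5 probe was called on day 10, at -0.37, and the third moved little, at 0.022.

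The 4 comparisons with day 0 share its 4 arrays, so their values stand side by side and are not independent. On day 10, 12 Ube2 probes were higher and 3 lower (21.7%, with 11.2% of all probes called, 4.08% higher and 7.12% lower), and 4 F-box probes were higher and 8 lower (14.1%). On day 15, 11 Ube2 probes were higher and 0 lower (15.9%, with 5.88% of all called, 2.03% higher and 3.84% lower), and 2 F-box probes were higher and 6 lower (9.41%). Bright probes were called more often. Of 29 Ube2 probes with a mean brightness of at least 9 (log2), 10 were higher and 2 lower on day 10, and 11 and 0 on day 15. Of all 4128 probes that bright, 37.5% were called on day 10 (13.6% higher, 23.9% lower) and 26.8% on day 15 (9.69% higher, 17.1% lower). On day 20, 1 Ube2 probe was higher and 1 lower, with 2.94% of all called, and 1 F-box probe was higher and 2 lower. On day 25, 2 Ube2 probes, of Ube2f and Ube2d3, were lower, at -0.86 (SE 0.17, adjusted p = 0.0476) and -0.36 (SE 0.059, adjusted p = 0.0207). None of the F-box probes passed limma's test on day 25, with 0.148% of all probes called. With arrays centred on the median of all probes, 0 Ube2 probes were higher and 29 lower on day 10, and none passed on day 15. Under that scaling 9222 of all 20915 probes were called on day 10, 15 of them higher, and 3 on day 15.

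The counts against day 0 leaned on single arrays. For Ube2 probes, the 15 calls of day 10 became 7 without the day 0 array of mouse 305, 9 without that of mouse 310 and 27 without that of mouse 320, and 7 and 9 without the day 10 arrays of mice 315 and 320. The 11 calls of day 15 became 4, 7 and 18 without the day 0 arrays of mice 305, 315 and 320, and 5 and 6 without the day 15 arrays of mice 315 and 320. For F-box probes, the 12 calls of day 10 became 3 and 7 without the day 0 arrays of mice 305 and 310, and 5, 4 and 5 without the day 10 arrays of mice 305, 315 and 320. The 8 calls of day 15 became 3 and 5 without the day 0 arrays of mice 305 and 310, and 5, 5, 4 and 3 without the day 15 arrays of mice 305, 310, 315 and 320. The sparse calls of days 20 and 25 moved more in proportion. On day 20 there were 15 Ube2 and 20 F-box calls without the day 20 array of mouse 305, 6 and 6 without the day 0 array of mouse 320, 0 and 0 without the day 20 array of mouse 315 and 1 and 1 without that of mouse 320, and Ube2 calls were 0 without the day 0 arrays of mice 305 and 310 or the day 20 array of mouse 310. On day 25 there were 13 Ube2 and 9 F-box calls without the day 25 array of mouse 310, and 2 F-box calls without the day 0 array of mouse 305. Ube2 calls were then 1 without the day 0 array of mouse 315, and 0 without the day 0 arrays of mice 310 and 320 or the day 25 arrays of mice 305, 315 and 320. With the mouse as a block, Ube2 calls were 23 on day 10, 7 on day 20 and 6 on day 25, and F-box calls 8 on day 20 and 1 on day 25.

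The largest Ube2 changes on day 10 were those of Ube2s, Ube2m and Ube2e3. Ube2s changed by 0.95 (SE 0.28, adjusted p = 0.0353), Ube2m by 0.89 (SE 0.19, adjusted p = 0.0076) and Ube2e3 by 0.78 (SE 0.18, adjusted p = 0.0107), each higher than on day 0 in 4 of 4 mice. On day 15 the largest were Ube2s at 1.15 (SE 0.31, adjusted p = 0.0344) with its probe A_51_P261689, Ube2e3 at 1.07 (SE 0.18, adjusted p = 0.00183) and Ube2o at 1.04 (SE 0.21, adjusted p = 0.00627). The 3 lower calls on day 10 included Ube2q1 (-0.30, SE 0.066, adjusted p = 0.00876) and Ube2g1 (-0.24, SE 0.064, adjusted p = 0.0247). Each of these genes had another probe, which did not pass on day 10. In the F-box family Fbxl19 led, at 1.15 (SE 0.17, adjusted p = 0.000989) on day 10 and 1.22 (SE 0.17, adjusted p = 0.000528) on day 15, followed by Fbxo9 at 0.77 (SE 0.20, adjusted p = 0.0208) and 0.85 (SE 0.20, adjusted p = 0.0158). These directions depended on the scaling. Centred on all probes, the day 10 values were -0.41 for Ube2s, -0.37 for Ube2m, -0.71 for Ube2e3, -0.42 for Fbxl19 and -0.76 for Fbxo9. In the Cy5 channel alone Fbxl19 gave -0.78 and Fbxo9 -0.10 on day 10. With arrays centred on all probes, 0 F-box probes were higher and 36 lower on day 10, with 9222 of all 20915 probes called, 15 of them higher. Under loess, calls the other way on day 15 included Fbxo31 (-0.34, SE 0.091, adjusted p = 0.0306) and Fbxo4 (-0.35, SE 0.10, adjusted p = 0.0358), both receptors for cyclin D1, and Fbxo6, a reader of glycoproteins (-0.42, SE 0.12, adjusted p = 0.0392). Fbxo4 and Fbxo6 each had another probe, which did not pass.

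A further Ube2 gene, Ube2w, had 1 of its 3 member probes on a course of its own under loess. Ube2w attaches ubiquitin to the first amino group of its substrates, and that probe was the Ube2 probe called higher on day 20. In mice 305, 310, 315 and 320, Ube2w (probe A_52_P947269) read -0.45, -0.91, 0.00054 and -0.023 on day 0 and 0.28, 0.082, 0.37 and 0.92 on day 10. Later it gave 0.030, 0.37, 0.038 and 0.18 on day 15, 0.12, 0.65, 0.72 and 0.60 on day 20 and 0.53, 0.033, 0.69 and 0.70 on day 25. Day 0 was the lowest group, with mice 305 and 310 well below 0, and day 25 kept close to day 20 in mice 315 and 320, was higher in mouse 305 and lower in mouse 310. The changes against day 0 were 0.76 (SE 0.21, adjusted p = 0.0252) on day 10, 0.87 (SE 0.21, adjusted p = 0.0318) on day 20 and 0.83 (SE 0.21, adjusted p = 0.0845) on day 25. The other Ube2w probes changed by no more than 0.20 in size in any of these, and none passed. In the Cy5 channel alone, probe A_52_P947269 gave -0.30 on day 10 and -0.21 on day 20.

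Single arrays moved these calls. On day 10, Ube2m, Ube2e3, Ube2q1, Fbxl19, Fbxw11 and Fbxl5 probe A_52_P626052 passed whichever array of either day was left out. The other Fbxl5 probe called on day 10, A_52_P617963, was lost without any 1 of the day 10 arrays of mice 315 and 320 or any 1 of the day 0 arrays of mice 305 and 310. The day 10 call of Ube2s was lost without any 1 of the day 10 arrays of mice 305, 315 and 320 or any 1 of the day 0 arrays of mice 305, 310 and 315. That of Ube2g1 did not pass without any 1 of the day 10 arrays of mice 305, 315 and 320 or any 1 of the day 0 arrays of mice 305 and 310. The day 10 call of Fbxo9 was also lost without the day 10 array of mouse 320 or any 1 of the day 0 arrays of mice 305 and 315. That of Ube2w missed the threshold without any 1 of the day 10 arrays of mice 315 and 320 or any 1 of the day 0 arrays of mice 305 and 310. On day 15, Ube2e3, Ube2o, Fbxl19 and Fbxw11 passed whichever array of either day was left out. The day 15 call of Ube2s was lost without any 1 of the day 15 arrays of mice 305, 315 and 320 or any 1 of the day 0 arrays of mice 305, 310 and 315. That of Fbxo9 did not pass without any 1 of the day 15 arrays of mice 315 and 320 or the day 0 array of mouse 305. The day 15 call of Fbxl5 was also lost without the day 15 array of mouse 320 or any 1 of the day 0 arrays of mice 305 and 310. That of Fbxo31 missed the threshold without any 1 of the day 15 arrays of mice 305, 310, 315 and 320 or any 1 of the day 0 arrays of mice 305 and 320. The day 15 call of Fbxo4 was lost without any 1 of the day 15 arrays of mice 305, 310, 315 and 320 or any 1 of the day 0 arrays of mice 305 and 310. That of Fbxo6 did not pass without any 1 of the day 15 arrays of mice 305, 310, 315 and 320 or any 1 of the day 0 arrays of mice 305 and 310. The day 20 call of Fbxl19 was lost without any 1 of the day 20 arrays of mice 315 and 320. That of Fbxw11 did not pass without the day 20 array of mouse 315. The day 20 call of Fbxl5 was also lost without any 1 of the day 20 arrays of mice 315 and 320 or any 1 of the day 0 arrays of mice 305 and 310. That of Ube2w missed the threshold without any 1 of the day 20 arrays of mice 310, 315 and 320 or any 1 of the day 0 arrays of mice 305 and 310.

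Over all 5 days, limma's F test called 38 of 69 Ube2 probes (55.1%) and 23 of 85 F-box probes (27.1%), with 27% of all probes called. These shares were not split by brightness. Among the 38 called Ube2 probes, the lowest day mean was that of day 25 in 28 and the highest was that of day 10 in 13 and of day 15 in 11. Among the 23 called F-box probes, day 25 was lowest in 11. The same counts were not made over all called probes, so these by themselves set neither family apart. Neighbouring days in that order often overlapped, as days 10 and 15 did for Ube2h, Ube2r2 and Fbxo7.

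Markers of other blood cells moved on the same days. The mean level of the 16 erythroid markers per array was -0.58 to -0.12 on day 25 and 0.58 to 0.77 on day 10, and it spanned -0.13 to 0.69 on day 0. Alas2, the heme enzyme of red cells, was well above background on all 20 arrays but measured on 16, and Trim58 was not on the array. The 43 member probes called lower on day 25 than on day 10 averaged 0.030, 0.51, 0.46, 0.32 and -0.36 on days 0, 10, 15, 20 and 25. The 18 called higher averaged 0.11, -0.079, -0.029, 0.017 and 0.19. Both sets were picked by that comparison, so their difference between days 10 and 25 follows from the choice. Of the 9 mature neutrophil markers tested, 8 were lower on day 10 than on day 0 after loess, with 7.12% of all probes lower. On day 25 against day 10, 4 of 8 B cell, 5 of 9 T cell, 2 of 9 neutrophil and 1 of 7 monocyte markers were higher and 0 lower. Of 7 platelet markers 3 were lower, and of 6 NK cell markers 0 were called. Of all probes, 17.7% were higher and 13.8% lower there. Centred on all probes, every call among the markers of these 6 cell types was higher. The part of these cell types in the E2 and F-box values was not tested.

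**Figure D4:**
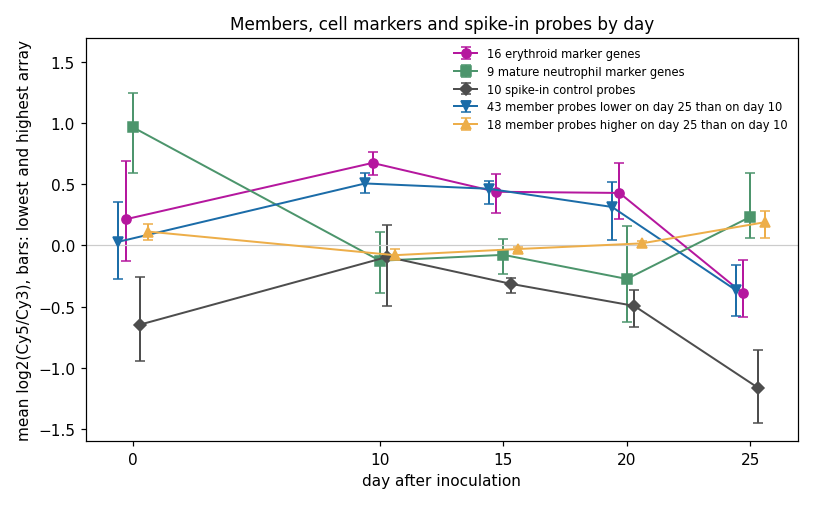
Mean log2(Cy5/Cy3) per array on days 0, 10, 15, 20 and 25 of 43 member probes lower and 18 higher on day 25 than on day 10, 16 erythroid markers, 9 neutrophil markers and 10 spike-in probes. Points are means of 4 arrays and bars run from the lowest to the highest array. The erythroid markers and the spike-in probes are highest on day 10 and lowest on day 25. Both sets of members were picked by the comparison of day 25 with day 10, so their difference between those days follows from the choice.

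After loess, the E2 probes called lower were mostly bright ones. Of 29 Ube2 probes with a mean brightness of at least 9 on the log2 scale, 23 were lower and 3 higher on day 25 than on day 10, while of all 4128 probes that bright 26.2% were lower and 37.6% higher. In the 40 dimmer Ube2 probes, 7 were lower and 5 higher. Of 9 bright F-box probes, 5 were lower and 1 higher. Between 11 and 13 on that scale the member probes had a median change of -1.10, against 0.052 over all probes, and above 13 the medians were -1.04 and -0.56. An offset of 50 added to both channels draws dim probes towards 0, so their changes are understated.

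**Figure D5:**
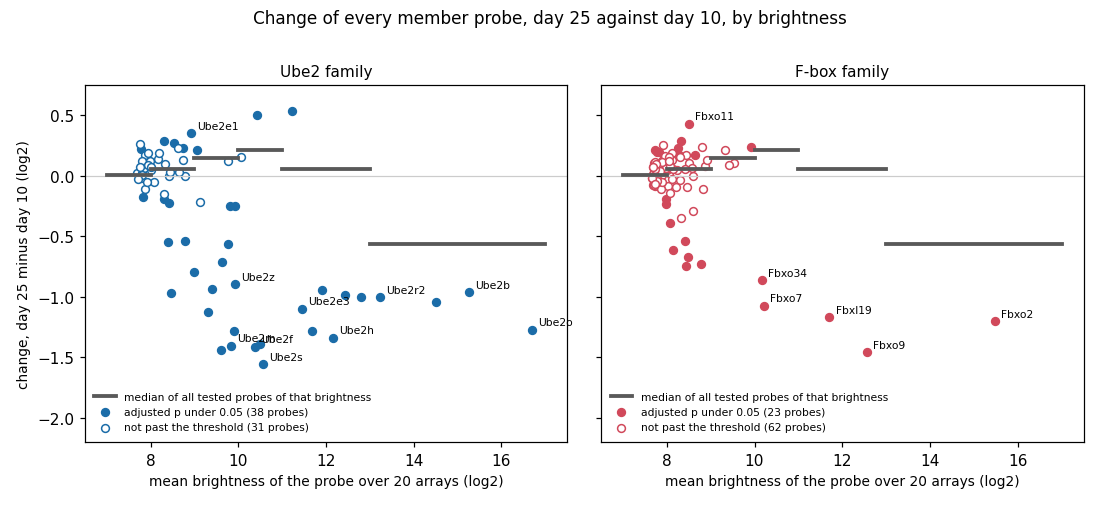
Change in log2(Cy5/Cy3) on day 25 against day 10, plotted against mean brightness (log2), for 69 Ube2 and 85 F-box probes. Filled points passed the threshold (38 Ube2, 23 F-box) and open ones did not (31 Ube2, 62 F-box), and the grey line is the median of all probes in each brightness bin. Bright Ube2 probes lie mostly below the line under the loess scaling on which this direction depends.

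Other genes of the pathway were called both ways after loess, and with arrays centred on all or on spike-in probes the calls of ubiquitin, cullin and substrate genes were all higher. Each of these genes was taken by its brightest tested probe. Of all probes tested, 31.5% were called on day 25 against day 10 and 27% by the F test. Of the 4128 probes with a brightness of at least 9, 63.9% were called on day 25 against day 10. The counts that follow were not matched for brightness, so by themselves they do not set these genes apart. Of 18 genes for ubiquitin, its relatives and E1 enzymes, 8 were higher and 5 lower on day 25 than on day 10 and 11 passed the F test over days. Rps27a, a ubiquitin and ribosomal fusion, gave 0.61 (SE 0.12, adjusted p = 0.00113). The lowest value was that of Isg15, a relative of ubiquitin that interferon induces, at -1.70 (SE 0.24, adjusted p = 0.000133). Of 24 genes of the cullin core and the COP9 signalosome, which removes NEDD8 from cullins, 10 were higher and 6 lower, and 16 passed the F test. Cul4a gave -1.37 (SE 0.18, adjusted p = 8.77e-05), Rbx1, the RING subunit of SCF, 0.49 (SE 0.076, adjusted p = 0.000222) and Tceb2, the elongin B of Cul2 and Cul5 ligases, -1.07 (SE 0.18, adjusted p = 0.000495). Of 11 substrate genes tested, of 16 listed, 5 were higher and 1 lower: Mcl1, a survival factor, gave 0.57 (SE 0.10, adjusted p = 0.000444), Bcl6 0.55 (SE 0.11, adjusted p = 0.002) and Nfkbia 0.51 (SE 0.13, adjusted p = 0.00562). Of the F-box proteins with other names, Skp2 and Lmo7 were tested and neither was called, and Btrc and Ccnf were too dim. RNA levels of substrates do not measure their breakdown.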

How the data were processed

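For each spot and dye, the authors deposited the scanner's intensity readings: a mean signal and a median background around it. Agilent Feature Extraction 9.1.3.1 wrote them, per the file headers. The deposited log10 ratio of the series table equalled that of the scanner files for 900360 of 900360 values, within 1e-06. Here the intensity was corrected with normexp (offset 50), the log2 ratio of Cy5 over Cy3 was normalized within arrays by loess with control spots at weight 0, non-uniform spots were dropped, and spots of 1 probe were averaged. Files and labels name no build or aligner.

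Probes well above background in Cy5 on at least 4 of 20 arrays and measured on at least 3 arrays of each day entered the test, 20915 in all. A linear model of day means was fitted with limma 3.58.1 (R 4.3.3), with two-sided moderated tests and Benjamini-Hochberg adjustment over all probes. Where nothing else is said, n is 4 mice a day. Mouse numbers pair the arrays, because the same 4 animals were sampled throughout. Within a mouse, departures from the day mean had an average r of 0.085 over 40 pairs of arrays (-0.42 to 0.52), and between mice -0.029. The departures of a day sum to 0 over its 4 mice. The value between mice is therefore tied to that within a mouse and is no separate measure of the pairing. The fit was also tested on simulated data.

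Members, gene lists and roles were chosen with earlier results of these data known. Named genes were the 5 of each family with the lowest F test p, the 3 highest and lowest calls of each comparison that moved the same way in every mouse, and genes with a known role in blood or SCF; every member probe of such a gene entered the tables, and the results of some genes are not reported here. Gene names are the array's own: Fbxl10, Fbxl11, Fbxo18 and Ube2d2 are now Kdm2b, Kdm2a, Fbh1 and Ube2d2a. The alternatives changed the background correction, normalization, filters, block and arrays, and 3 were added after the data were seen: centring on the tested probes, centring on the spike-in probes, and leaving out day 0. Promoters were searched on both strands. Arrays give no read depth, so their number limits the precision.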

Additional observations from a re-analysis of the deposited data

Results flagged for a closer look

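Among 159 groups of 4 arrays of named probes, 9 held an array set far apart from the other 3, where chance flags about 1 in 20 groups (5%). Mouse 310 supplied 6 of the 9. On day 25 it read 0.0047 for Fbxw7, with the others at 0.15 to 0.17, and -0.017 for Ube2v1 (probe A_52_P575752), with the others at -0.21 to -0.19. On day 20 it read -0.034 for Fbxl20 and -0.097 for Fbxo4. On day 15 it read -0.085 for Fbxo32 and 0.19 for Ube2e1. In mouse 305, Ube2e1 stood at 0.38 on day 0 with the others at 0.15 to 0.18, and Fbxo2 (probe A_52_P580912) at -0.18 on day 20 with the others at 0.27 to 0.36. Ube2h in mouse 315 read 0.92 on day 15, with the others at 0.66 to 0.70.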

How the results depend on the processing

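Counts of probes past the threshold are given for the comparison of each day with day 0 unless said otherwise. The main counts were, for days 10, 15, 20 and 25, day 25 against day 10 and the F test, 15, 11, 2, 2, 38 and 38 Ube2 probes and 12, 8, 3, 0, 23 and 23 F-box probes. Leaving out 1 array at a time gave Ube2 counts of 7 to 27 (day 10), 4 to 18 (day 15), 0 to 15 (day 20), 0 to 13 (day 25), 34 to 43 (day 25 against day 10) and 32 to 42 (the F test). In the same way, F-box counts ranged over 3 to 15 (day 10), 3 to 8 (day 15), 0 to 20 (day 20), 0 to 9 (day 25), 14 to 33 (day 25 against day 10) and 16 to 31 (the F test).

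With each array centred on the median of all its probes, Ube2 counts were 29 on day 10, 0 on day 15, 0 on day 20, 0 on day 25 and 12 by the F test. F-box counts were 36 on day 10, 0 on day 15, 0 on day 20, 44 on day 25 against day 10 and 12 by the F test. Under scaling between arrays after loess, Ube2 counts were 24 on day 15, 0 on day 25 and 18 on day 25 against day 10. F-box counts were 19 on day 10, 27 on day 15, 7 on day 20, 6 on day 25 and 39 by the F test. With no background correction, Ube2 counts were 36 on day 10, 36 on day 15, 8 on day 20 and 14 on day 25. F-box counts were 34 on day 10, 45 on day 15, 21 on day 20, 19 on day 25 and 55 by the F test. Under a normexp offset of 0, Ube2 counts were 1 on day 20 and 0 on day 25. F-box counts were 5 on day 10 and 4 on day 15. With the scanner software's own ratio, Ube2 counts were 29 on day 10, 38 on day 15, 4 on day 20 and 7 on day 25. F-box counts were 32 on day 10, 47 on day 15, 14 on day 20, 4 on day 25 and 52 by the F test. Under the Cy5 channel alone after quantile normalization, Ube2 counts were 36 on day 15, 15 on day 20 and 13 on day 25. F-box counts were 52 on day 15, 23 on day 20, 12 on day 25 and 61 by the F test. With probes well above background on all 20 arrays, Ube2 counts were 4 on day 20. F-box counts were 5 on day 20. Under no filter on dim probes, Ube2 counts were 1 on day 20 and 1 on day 25. F-box counts were 7 on day 10 and 5 on day 15. With 1 probe for each gene, Ube2 counts were 9 on day 10, 17 on day 25 against day 10 and 16 by the F test. Under the mouse as a replicate block, Ube2 counts were 23 on day 10, 7 on day 20 and 6 on day 25. F-box counts were 8 on day 20 and 1 on day 25. With each array centred on the median of the tested probes, Ube2 counts were 23 on day 10, 7 on day 15, 0 on day 20, 0 on day 25, 22 on day 25 against day 10 and 14 by the F test. F-box counts were 31 on day 10, 0 on day 20 and 39 on day 25 against day 10. Under each array centred on the spike-in probes, Ube2 counts were 0 on day 10, 0 on day 15, 0 on day 20, 0 on day 25, 14 on day 25 against day 10 and 5 by the F test. F-box counts were 0 on day 10, 0 on day 15, 0 on day 20, 9 on day 25 against day 10 and 4 by the F test. The other counts stayed within 1.5 times the main ones under these settings. Using 1 probe for each gene leaves fewer probes to test, and for the other changes of count the cause was not tested.

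Of 88 called values of named probes, 86 kept their call with the mouse as a replicate block and 2 did not pass. Calls in the same direction numbered 43 with scaling between arrays, 86 with no background correction, 72 with the offset of 0 and 82 with the scanner's ratio, and 0 values reversed under these. They numbered 16 centred on all probes, 22 centred on the tested probes, 5 centred on the spike-in probes and 50 in the Cy5 channel alone, and 47, 26, 22 and 12 values reversed there. Leaving the day 0 arrays out of the fit gave 29 lower and 7 higher Ube2 probes, and 12 lower and 7 higher F-box probes, on day 25 against day 10. The scalings without loess placed the median change of all tested probes as far from 0 as 0.65 and turned the sign of the following values, whose cause was not tested. Centred on all probes, day 10 gave Fbxl19 -0.42, Fbxo7 -0.83, Fbxo9 -0.76, Ube2e3 -0.71, Ube2f -0.83, Ube2h -0.84, Ube2m -0.37 and -0.42, Ube2r2 -0.85, -0.77 and -0.63. It further gave for day 10 Ube2s -0.41, Ube2v1 -0.33, Ube2z -0.52. For day 15 it gave Fbxl19 -0.21, Fbxo9 -0.61, Ube2b -0.54 and -0.44, Ube2e3 -0.34, Ube2h -0.62, Ube2m -0.62, Ube2o -0.29, Ube2r2 -0.63 and -0.56. It further gave for day 15 Ube2s -0.20 and -0.11, Ube2z -0.48. For day 20 it gave Fbxl19 -0.051. For day 25 against day 10 it gave Fbxl19 0.18, Fbxo2 0.00051, Fbxo7 0.10, Ube2b 0.20 and 0.25, Ube2d3 0.57, 0.41 and 0.90, Ube2e3 0.14, Ube2h 0.36 and 0.087, Ube2n 0.49. It further gave for day 25 against day 10 Ube2o 0.27, Ube2r2 0.22 and 0.35, Ube2v1 0.14, 0.95 and 0.15, Ube2z 0.31. In the Cy5 channel alone, day 10 gave Fbxl19 -0.78, Fbxo9 -0.10, Ube2h -0.42, Ube2r2 -0.060, Ube2w -0.30. For day 15 it gave Fbxo9 -0.0045, Ube2h -0.14. For day 20 it gave Ube2w -0.21. For day 25 against day 10 it gave Fbxl19 0.65, Fbxo2 0.44, Ube2o 0.21, Ube2q1 -0.059. Centred on the tested probes, day 10 gave Fbxl19 -0.018, Fbxo7 -0.43, Fbxo9 -0.36, Ube2e3 -0.31, Ube2f -0.43, Ube2h -0.44, Ube2m -0.015, Ube2r2 -0.45, -0.37 and -0.23. It further gave for day 10 Ube2s -0.0090, Ube2z -0.12. For day 15 it gave Fbxo9 -0.32, Ube2b -0.24 and -0.14, Ube2e3 -0.047, Ube2h -0.32, Ube2m -0.32, Ube2r2 -0.34 and -0.26, Ube2z -0.18. For day 25 against day 10 it gave Fbxo11 -0.091, Ube2d3 0.15 and 0.48, Ube2n 0.070, Ube2v1 0.54. Centred on the spike-in probes, day 10 gave Fbxo7 -0.059, Ube2f -0.063, Ube2h -0.072, Ube2r2 -0.081 and -0.0029. For day 25 it gave Ube2d3 0.065. For day 25 against day 10 it gave Fbxl19 0.072, Ube2b 0.087 and 0.14, Ube2d3 0.46, 0.30 and 0.79, Ube2e3 0.030, Ube2h 0.25, Ube2n 0.37, Ube2o 0.15, Ube2r2 0.11 and 0.24. It further gave for day 25 against day 10 Ube2v1 0.029, 0.84 and 0.034, Ube2z 0.19.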
